A study of Mus musculus with 2 samples.

Results

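Of the 1735 genes that were assigned a STAT5 peak in the series, 104 were assigned at least 1 peak in both genotypes, and 80 of those carry a gene name and are called the shared genes here. The 24 set aside were 15 gene models with names of the Gm or Rik type, 7 mitochondrial genes and the 2 STAT5 genes themselves. A gene was assigned the peaks that overlapped it and, for peaks between genes, those to which it was the nearer neighbour. The 80 genes made up 8.81% of the 908 named genes with a wild-type peak and 12.9% of the 622 with a knockout peak. Of all 20150 named protein-coding genes in RefSeq, 4.47% were assigned peaks in the wild type, 3.05% in the knockout and 0.392% in both. The shared genes were chosen on the peaks of both lists and their distances, so their number, peak counts and distances are descriptions. The values that follow describe where the peaks lay around each gene and how far apart the positions of the libraries were. They also give how long the genes were and how the peaks scored.

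The peaks came from CUT&Tag, an assay in which an antibody brings a transposase to chromatin that holds the target protein, here with a STAT5 antibody. The cells were primary mouse aortic valve interstitial cells, the resident fibroblast-like cells of the valve leaflet, labelled either Tert+/+ or Tert-/-. Both genotypes had been kept for 7 days in a medium that drives bone-like change, with dexamethasone (100 nM), glycerol phosphate (10 mM) and ascorbic acid 2-phosphate (50 µM) in 10% serum. There was 1 library for each genotype, so no difference between them had a replicate check, and the age of the mice and the allele behind the knockout are not given in the sources used here. The wild-type list held 1217 peaks and the knockout list 837, and the depth of neither is given in the sources used here. Peaks do not measure expression, so the labelled cell type could not be checked against its markers.

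STAT5A and STAT5B are transcription factors that wait in the cytoplasm until a cytokine or hormone receptor activates its JAK kinases. The phosphorylated dimer then enters the nucleus and binds a short palindrome, TTCNNNGAA, in which N is any base. In valve cells an osteogenic medium is used to model the calcification of valve disease, and TERT is the catalytic subunit of telomerase.

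The palindrome was searched in the RefSeq promoter windows of the shared genes, which run from 250 bases before to 50 after each listed gene start, because no genome sequence under the peaks was used here. The motif reads the same on both strands. It was found in 7 of 83 windows of shared genes (8.43%, exact 95% interval 3.46 to 16.6), belonging to 7 of the 63 shared genes with a window in the table, and in 8.30% of all 32851 windows. The share among shared genes was therefore near that of all promoters. The 4 windows below belong to genes described further on, are read on the gene's own strand, and show the motif in capitals with up to 30 flanking bases that lie before the listed start (RefSeq, GRCm38.p6).
Lyst, chr13:13590159-13590213, plus strand: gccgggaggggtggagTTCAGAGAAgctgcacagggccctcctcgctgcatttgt
Wnt5b, chr6:119467332-119467400, minus strand: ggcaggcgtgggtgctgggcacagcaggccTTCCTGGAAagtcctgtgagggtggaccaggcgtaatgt
Mef2c, chr13:83503847-83503915, plus strand: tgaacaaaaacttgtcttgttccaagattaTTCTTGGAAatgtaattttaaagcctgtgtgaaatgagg
Rbms3, chr9:117630027-117630095, minus strand: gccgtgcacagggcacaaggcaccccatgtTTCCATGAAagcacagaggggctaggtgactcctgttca

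No peak lay on any of these 4 motifs. The Lyst motif was 2976 bp from the wild-type peak and 3454 bp from the knockout peak, and the Wnt5b motif was 10625 and 5081 bp away. At Mef2c the distances were 401655 and 176562 bp, and at Rbms3 they were 936590 and 106915 bp. Dmac1 and Dsel also held the motif before their start, with their nearest peaks 97963 and 803754 bp away, both in the knockout.

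Most shared genes had a single peak in each library. Of the 80 genes, 63 had 1 wild-type and 1 knockout peak, and Ank alone had 2 in both. A further 9 genes had 2 wild-type peaks against 1 (Alox5ap, Ano2, Apob, Cadm2, Malt1, Nkain3, Pak3, Runx1 and St6galnac3), and 7 had 2 knockout peaks against 1 (Brinp1, Diaph2, Iqsec1, Kcnd2, Kif18a, Plk2 and Rbms3). No shared gene had 3 or more in either list. Together the genes took 90 wild-type and 88 knockout peaks, a ratio of 1.02 against 1.45 for the whole lists. A gene had to have at least 1 peak in each list to be counted, which by itself draws this ratio toward 1.

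Genes on the other side of that requirement had peaks in a single library. There were 828 named genes with wild-type peaks and 0 in the knockout, 772 of them with 1 peak, and 542 with knockout peaks and 0 in the wild type, 512 of them with 1. Repeated peaks occurred there too, with 3 or more in 9 of the wild-type genes and 5 of the knockout genes. Col19a1, a collagen gene, had the most in the wild type, 10. Dnajb9, Mitf and Nckap5, with 3 knockout peaks each, were among the 5. In the wild type 12.5% of the shared genes (exact 95% interval 6.16 to 21.8) and 6.76% of the single-library genes (5.15 to 8.69) had 2 or more peaks. In the knockout these shares were 10.0% (4.42 to 18.8) and 5.54% (3.77 to 7.81). The intervals overlapped in both lists, and they cover counting error over genes only. The shared genes were chosen on these same peaks, so both comparisons are descriptions.

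The peaks of shared genes often lay far from the gene. By the deposited distances, a wild-type peak lay inside the gene body in 30 of the 80 genes (37.5%, exact 95% interval 26.9 to 49.0), against 54.0% (50.5 to 57.4) of the genes with wild-type peaks alone. In the knockout the counts were 34 of 80 (42.5%, 31.5 to 54.1) against 50.0% (45.7 to 54.3) of the genes with knockout peaks alone. The wild-type intervals did not overlap and the knockout intervals did, but the assignment used these same distances, so both comparisons are descriptions. These intervals cover counting error over genes only.

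Outside the gene bodies, the median distance of a peak to its shared gene was 108210 bp in the wild type (58 peaks, 95% interval of the median 67133 to 203107) and 170890 bp in the knockout (52 peaks, 66095 to 261398). For genes with peaks in a single library the medians were 28096 bp (433 peaks, 23196 to 32518) and 35303 bp (295 peaks, 29630 to 52174). More than 50000 bp from the gene lay 43.3% of the wild-type peaks of shared genes and 39.8% of their knockout peaks, against 18.2% and 22.7% for single-library genes. The stretch between genes that held such a peak had a median length of 635 kb for wild-type peaks and 737 kb for knockout peaks, against 141 and 210 kb for single-library genes. The rule assigns to a gene every peak up to the midpoint of the space beside it, and the part of this space in the sharing was not tested.

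**Figure D1:**
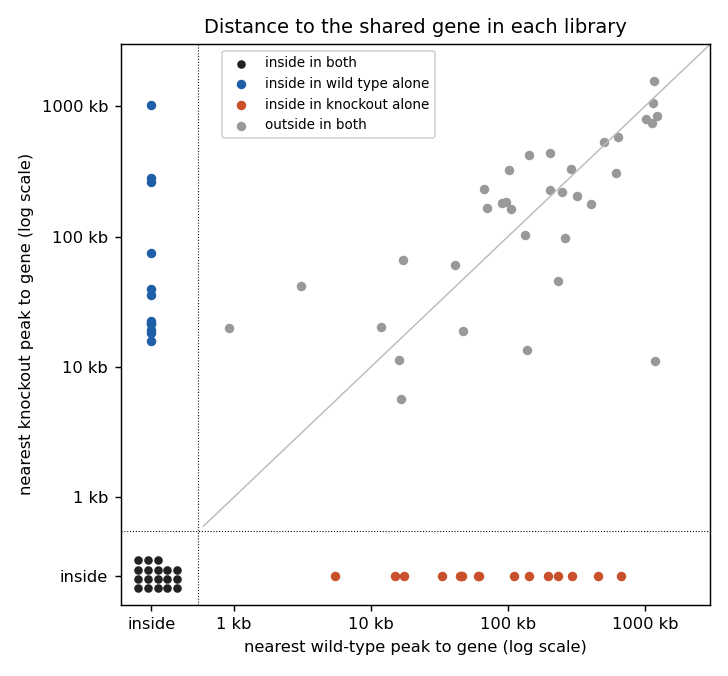
Distance from each of the 80 shared genes to its nearest wild-type peak (horizontal, log scale) and nearest knockout peak (vertical, log scale), with peaks inside the gene drawn beyond the dotted lines and the 18 genes with peaks inside in both spread as a grid with no further meaning. The 34 genes with peaks outside in both reach past 1000 kb on both axes, and the diagonal marks equal distances.

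The 80 genes fell into 4 groups by the place of their peaks. In 18 genes a peak lay inside the gene in both libraries, in 12 in the wild type alone, in 16 in the knockout alone, and in 34 every peak lay outside. Of those 34, 25 had all peaks on the same side of the gene, 8 had the libraries on opposite sides, and Brinp1 had a knockout peak on each side. For 28 of the 80 genes (35.0%, exact 95% interval 24.7 to 46.5) peaks of both libraries lay in the same stretch between the same pair of genes.

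Sharing a gene rarely meant sharing a position. The closest wild-type and knockout peaks of a gene were a median of 122 kb apart (80 genes, 95% interval of the median 73.7 to 203.9, quartiles 35.9 and 290 kb). They overlapped in 1 gene of 80 (1.25%, exact 95% interval 0.0316 to 6.77), lay within 10000 bp in 7 (8.75%, 3.59 to 17.2) and within 50000 bp in 23, and were over 1000000 bp apart in 2. The median was 74.4 kb in the 18 genes with peaks inside in both (12.5 to 149.2), 134 kb in the 34 with peaks outside in both (54.9 to 236.6), 136 kb in the 12 inside in the wild type alone and 177 kb in the 16 inside in the knockout alone.

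**Figure D2:**
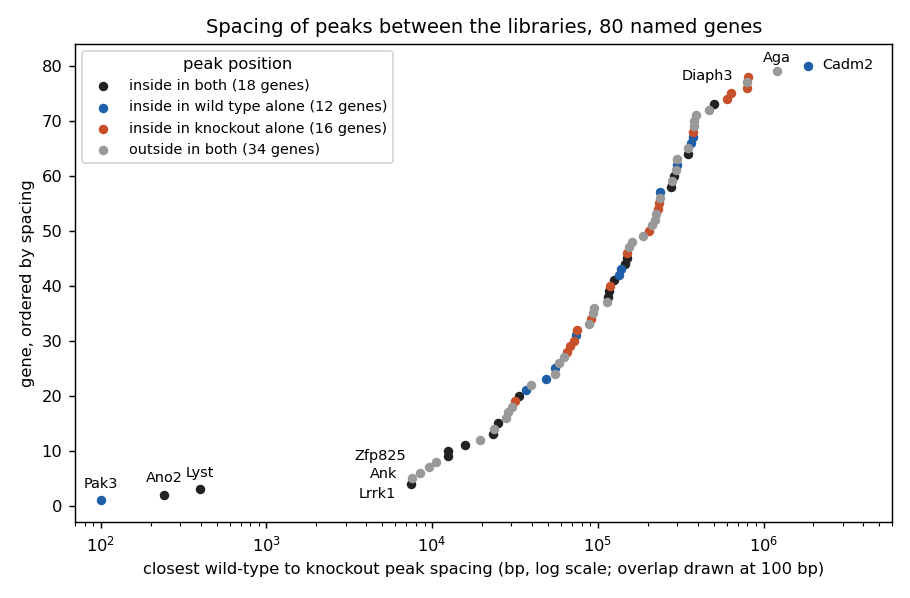
Closest spacing between a wild-type and a knockout peak for each of the 80 shared genes (horizontal, bp on a log scale), with genes ordered by spacing on the vertical axis and coloured by whether a peak lay inside the gene. Pak3 (overlap, drawn at 100 bp), Ano2 and Lyst stand apart below 1000 bp, and the next gene, Lrrk1, is at 7413 bp.

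The spacing between libraries can be set beside the spacing of peaks within 1 library. The 10 genes with 2 wild-type peaks had these a median of 132 kb apart (lowest 0, highest 1136 kb), and the 8 genes with 2 knockout peaks had them 149 kb apart (lowest 22.8, highest 1394 kb). In 4 of the 10 wild-type genes (Alox5ap, Ano2, Cadm2 and Malt1) and 2 of the 8 knockout genes (Kcnd2 and Rbms3) the peaks of 1 library were closer to each other than to the other library. The measures are unlike: 1 pair within a library was set beside the closest of at least 2 pairs across libraries. This by itself favours closeness across libraries, so the counts do not show which peaks lay nearer. In the wild type 3 pairs were tight: the Ano2 peaks shared 1 bp, the Alox5ap peaks were 139 bp apart and the Malt1 peaks 191 bp apart. In the knockout 0 of 8 pairs lay within 1000 bp.

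Pak3, which encodes a kinase downstream of the small GTPases Rac and Cdc42, was the gene with overlapping positions. Its wild-type peak at chrX:143483018-143483097 lay wholly within the knockout peak at chrX:143482971-143483238, about 35 kb below the gene (chromosome X, 143518366 to 143797796, plus strand), the deposited distances being 35493 and 35352 bp. The wild-type peak was among the lowest-ranked of its list and the knockout peak was not: the scores were 0.975 and 1.00, with authors' p-values of 0.165 and 0.158 and ranks of 1181 of 1217 and 303 of 837 in their lists. A second wild-type peak, at chrX:143582233-143582314 inside the gene, scored 1.45 and had no knockout peak near it.

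Ano2 and Lyst came next, with neighbouring but separate positions inside the gene. Ano2 encodes a calcium-activated chloride channel (chromosome 6, 125690419 to 126040133, plus strand, 350 kb). Its abutting wild-type peaks, at chr6:125876913-125877031 and chr6:125877031-125877149, scored 11.7 and 8.98, ranked 11 and 16 in the wild-type list, and were the widest wild-type peaks of any shared gene at 119 bp each. The knockout peak lay 242 bp further on, at chr6:125877392-125877590, with a score of 0.923, a p-value of 0.178 and rank 745. The gene thus paired 1 of the highest wild-type scores with a low knockout score, and all 3 peaks sat at 53.3 to 53.5% of the gene's length from its start.

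Lyst, a regulator of lysosome size that is mutated in the beige mouse, spans chromosome 13 from 13590311 to 13778803 on the plus strand. Its wild-type peak at chr13:13593159-13593238 and its knockout peak at chr13:13593637-13593840 were 398 bp apart and lay 2750 and 3228 bp from the listed gene start, at 1.53 and 1.82% of the gene. The wild-type peak scored 1.14 (p-value 0.127, rank 644) and the knockout peak 1.45 (p-value 0.0734, rank 83). Lyst was the only shared gene with a peak of both libraries within 5000 bp of a listed start of its own, among the genes with a listed start.

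The next 7 genes in closeness, Ank among them (described with the higher-scoring genes), had spacings from 7413 to 12529 bp. Lrrk1, a kinase needed for bone resorption by osteoclasts, had its wild-type peak at chr7:66238323-66238403 and its knockout peak at chr7:66245817-66246079, inside the gene by the deposited columns although RefSeq places its lower end at 66258745. Iqsec1, an exchange factor for the GTPase ARF6, had a wild-type peak at chr6:90819224-90819307 and a knockout peak 12491 bp away, with a second knockout peak at 99.4% of the gene's length. Tmem233, a small membrane protein gene, had peaks 12529 bp apart, the wild-type peak at 95.6% of its length and the knockout peak at 67.1%. Zfp825, a zinc finger gene, had both positions below the gene, at 11875 bp in the wild type (score 2.16) and 20433 bp in the knockout (score 0.988), 8478 bp apart. Brinp1, a neuronal gene that restrains the cell cycle, had peaks 9611 bp apart but far below the gene, at distances of 632724 bp in the wild type and 622913 bp in the knockout. Alox5ap, which presents arachidonic acid to 5-lipoxygenase for leukotriene synthesis, had its positions 10576 bp apart below the gene, 16529 and 16749 bp away in the wild type and 5682 bp away in the knockout.

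The 18 genes with peaks inside in both libraries were Ano2, Cdh4, Col25a1, Col27a1, Diaph2, Grin2a, Iqsec1, Lgr5, Lrrk1, Lyst, Rbms3, Sbf2, Sipa1l3, Slc39a11, St18, St6galnac3, Tmem233 and Wnt5b. They were long genes, with a median of 339 kb and a range from 44.5 kb (Tmem233) to 1057 kb (Rbms3). In the 17 whose inside peaks also fell within the RefSeq extent, the spacing between libraries had a median of 30.8% of the gene's length (quartiles 8.17 and 47.3%), and it was under 10% in 5, namely Ano2, Lyst, Iqsec1, St6galnac3 and Sbf2. At the other end, Slc39a11, a zinc transporter, had its peaks 85.8% of the gene apart, and Lgr5, a receptor for R-spondins that boosts Wnt signals, 84.4%.

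**Figure D3:**
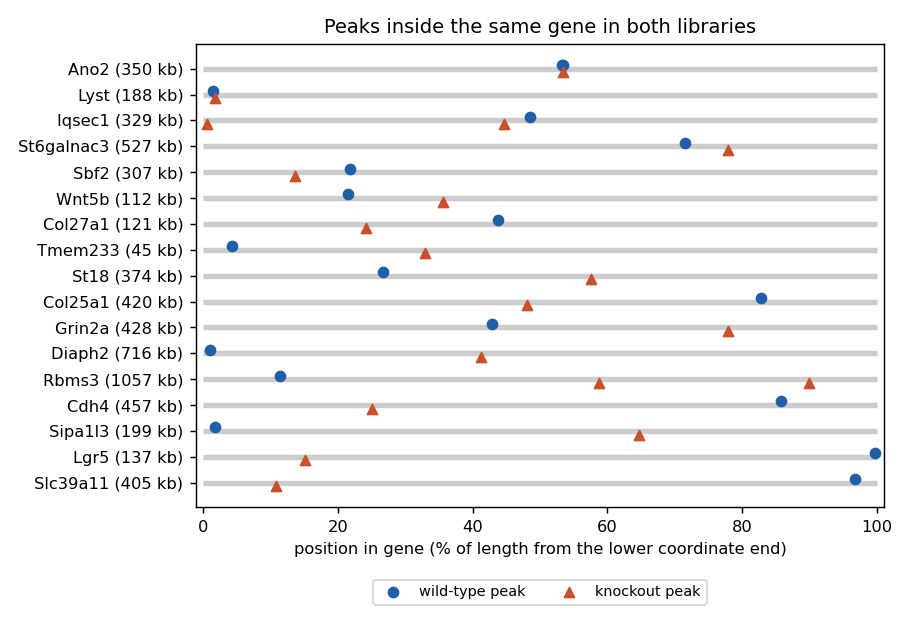
Position of wild-type (circles) and knockout (triangles) peaks in the 17 shared genes with peaks inside in both libraries by RefSeq extent, as a percentage of the gene's length from its lower coordinate end, with genes ordered by the spacing relative to length. The markers nearly coincide in Ano2 and Lyst and lie at opposite ends in Lgr5 and Slc39a11.

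Where strand was listed, the inside peaks were spread along the gene. The 23 wild-type peaks numbered 5, 4, 5 and 9 in 4 equal stretches from the gene's start to its end, and the 29 knockout peaks 7, 7, 7 and 8. Few peaks of shared genes lay near a listed start of their own gene. Within 5000 bp of it were 1 of 70 wild-type and 4 of 71 knockout peaks, and the median distances were 152 and 166 kb. These distances were not computed for single-library genes, so whether the counts are particular to shared genes cannot be told. The knockout peak closest to a start was in Negr1, an adhesion molecule of neurons, at chr3:156561917-156562186 and 123 bp from the start (score 0.962, p-value 0.168). It was also the 1 peak of a shared gene that overlapped any promoter window, of 178 in both libraries, that of the gene model 4930570G19Rik, which has 2 listed windows there. The wild-type peak of Negr1 was 232045 bp outside the gene.

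Shared genes were longer than genes with peaks in a single library. The 79 protein-coding shared genes had a median length of 137 kb (95% interval of the median 77.7 to 224.6), against 53.9 kb (46.4 to 61.1) for the 821 protein-coding genes with wild-type peaks alone, 58.1 kb (48.8 to 67.1) for the 536 with knockout peaks alone, and 18.2 kb for all 20150 named protein-coding genes. Genes over 100 kb made up 59.5% of the shared genes (exact 95% interval 47.9 to 70.4), 32.8% (29.6 to 36.1) and 34.5% (30.5 to 38.7) of the single-library genes, and 11.8% of all. The intervals of shared and single-library genes did not overlap, but genes are not replicates and no test was made. Short genes were shared as well: Tpm3-rs7, a pseudogene and the shared gene that is not protein-coding, is 2120 bp long, and Dmac1 942 bp.

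The shares of all named protein-coding genes with peaks (4.47% in the wild type, 3.05% in the knockout and 0.392% in both) were larger in each longer class of genes. Among genes of up to 10 kb the shares were 1.78, 1.14 and 0.0867%, with 6 of 6921 genes shared. Among the 551 genes over 300 kb they were 20.9, 16.5 and 4.90%, with 27 genes shared. The part of gene length in the sharing was not tested beyond these values.

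**Figure D4:**
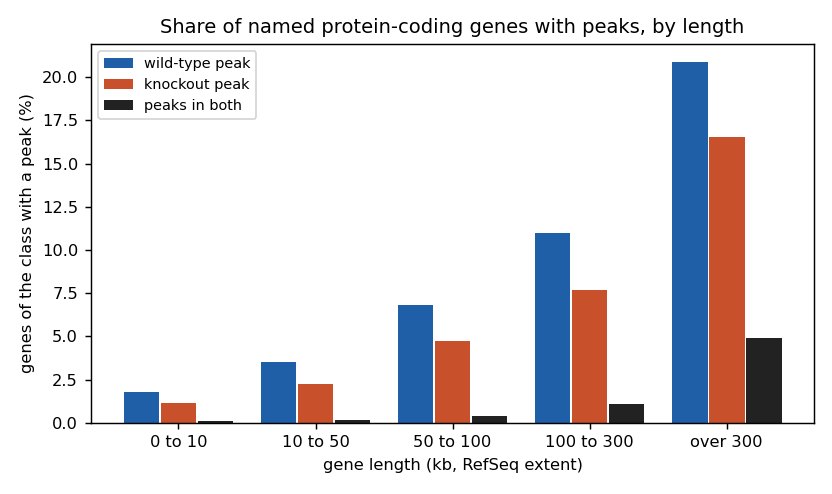
Share of named protein-coding genes (vertical, percent) with peaks in the wild type, the knockout or both, in 5 classes of RefSeq gene length in kb (horizontal). All 3 bars grow with length, the share with peaks in both from 0.0867% in the shortest class to 4.90% in the longest.

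Most peaks of shared genes had p-values above 0.05 in both lists. The authors' peak shape score and p-value rank peaks within a list, and they are not separate measures. A score of 1.027 went with an authors' p-value of 0.152 in either list (Dmac1 in the wild type, Dcaf12l1 in the knockout). Whether equal scores mean equal signal in the 2 lists is unknown. Peaks of shared genes had a median width of 83.5 bp in the wild type and 253.5 bp in the knockout. In the wild type 19 of the 90 peaks (21.1%, exact 95% interval 13.2 to 31.0) had a p-value under 0.05, against 30.4% (27.4 to 33.6) of the peaks of genes with wild-type peaks alone. In the knockout 0 of 88 did, an exact 95% upper bound of 4.11%, against 2.95% (1.73 to 4.68). The median scores were 1.11 for shared and 1.15 for single-library genes in the wild type, and 0.975 and 0.973 in the knockout.

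In the wild type 16 shared genes had a peak with a p-value under 0.05. After Ano2 the highest scores belonged to St6galnac3, a sialyltransferase (6.81, rank 38, 74424 bp outside the gene), Alox5ap (6.51, rank 42), Tox3, an HMG-box factor (4.53, 97507 bp away), Malt1, the paracaspase of NF-kB signalling (4.04, 3114 bp away), and Mvb12b, an endosomal sorting subunit (3.56, 45584 bp away). None of these 5 had a knockout peak within 10000 bp of its wild-type positions. The knockout scores of the same genes were 1.44, 1.42, 0.990, 0.931 and 1.01 in that order, beside 0.923 for Ano2.

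In the knockout the highest score of a shared gene was 1.55, in Rbms3, an RNA-binding protein gene, at chr9:117193673-117193903 inside the gene (p-value 0.0601, rank 43). Mef2c, a transcription factor of heart and muscle development, followed with 1.49 at 176718 bp, and Nt5e, which makes adenosine from AMP, with 1.47 at 21825 bp. The top knockout scores left a gap: 12 genes were at 1.24 or above (Alox5ap, Ank, Cd84, Iqsec1, Itga4, Kif18a, Lrrk1, Lyst, Mef2c, Nt5e, Rbms3 and St6galnac3) and the other 68 at 1.11 or below. The whole knockout list had no such gap: the Iqsec1 peak at 1.24 ranked 166 and the Arl15 peak at 1.11 ranked 190, with peaks of other genes between. Of these 12, Lyst, Lrrk1, Ank, Alox5ap and Iqsec1 were also among the 10 of all 80 genes with the closest positions. The rest of those 10, Pak3, Ano2, Zfp825, Brinp1 and Tmem233, scored at 1.11 or below. Both groups were cut on the same peaks, and their overlap was not tested. Over the 80 genes the top scores in each list had a Spearman rho of 0.16, given as a description of pairs that share a gene and no position. The top wild-type score of Pak3 came from its inside peak, not from the overlapping one.

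**Figure D5:**
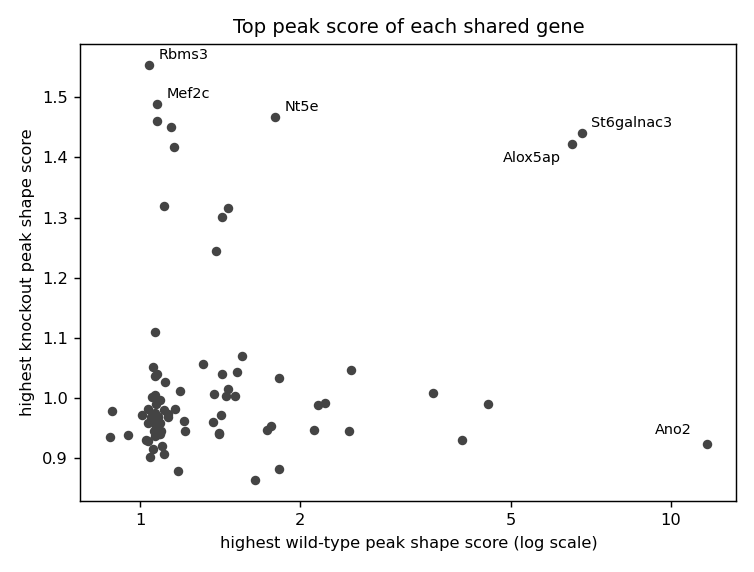
Highest peak shape score of each of the 80 shared genes among wild-type peaks (horizontal, log scale) and among knockout peaks (vertical, linear). Ano2 has the highest wild-type score, 11.7, and a low knockout score, and 12 genes lie above 1.2 in the knockout.

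With a p-value under 0.1 required in each library, 5 shared genes remained: Alox5ap, Ank, Cd84, Nt5e and St6galnac3. Ank, a pyrophosphate transporter that limits mineral deposition, had wild-type peaks at chr15:27369803-27369890 (score 1.42, p-value 0.0774) and chr15:27449544-27449624 (score 1.08), and knockout peaks at chr15:27377416-27377630 (score 1.00) and chr15:27400391-27400581 (score 1.30, p-value 0.0966). All 4 lay below the gene, 17052 to 96786 bp away, the closest pair across libraries being 7525 bp apart. The wild-type peak of Nt5e lay inside the gene at chr9:88360739-88360819 (score 1.80, p-value 0.0362) and its knockout peak outside at chr9:88304991-88305371 (p-value 0.0711), 55367 bp apart. Cd84, a receptor of immune cells, had a wild-type peak 17568 bp outside (score 1.46) and a knockout peak inside the gene (score 1.32), 31758 bp apart. In St6galnac3 the wild-type peak nearest to the knockout peak scored 1.06, and the peak scoring 6.81 lay outside the gene, below its lower end.

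Ank and Nt5e both belong to a list of 17 mineral metabolism genes. In it 3 genes had peaks in the wild type (17.6%, beside 4.47% of all genes), 2 in the knockout (11.8%, beside 3.05%) and 2 in both (11.8%, beside 0.392%). The list is short, and its members were picked with earlier results of these data known, so these shares support nothing by themselves. The osteogenic list, of 28 genes, had 2 with wild-type peaks (7.14%) and 0 with knockout peaks. The chondrogenic list, of 14 genes, had 2 (14.3%) and 3 (21.4%), and neither list held a shared gene.

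Wnt5b, a ligand that mainly acts outside the beta-catenin branch, was the 1 shared gene of 34 in the Wnt list, where 9 genes had wild-type peaks (26.5%, beside 4.47% of all genes), 2 had knockout peaks (5.88%, beside 3.05%) and the 1 shared gene made up 2.94% (beside 0.392%). These lists are short, so 1 gene moves such a share by several percentage points. Its peaks lay inside the gene (chromosome 6, 119432531 to 119544824, minus strand) at chr6:119456654-119456737 in the wild type (score 2.47, p-value 0.00672) and chr6:119472451-119472676 in the knockout (score 0.946, p-value 0.172). They were 15713 bp apart, 14.0% of the gene's length, on opposite sides of the listed start whose promoter window is printed above. Their distances to the nearest listed start of Wnt5b were 7268 bp in the wild type and 5240 bp in the knockout.

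Among 31 BMP and TGF-beta genes, 6 had wild-type peaks (19.4%, beside 4.47% of all genes) and 2 had knockout peaks (6.45%, beside 3.05%). Both kinds were found in 2 genes (6.45%, beside 0.392%). The list is short and was picked with earlier results of these data known, so these shares support nothing by themselves. Smad4, the common partner of the receptor-activated SMADs, had its wild-type peak 14978 bp outside the gene (score 1.09) and its knockout peak inside (score 0.996), 68265 bp apart. Acvr2a, a type II activin receptor, was reached only from a gene-poor stretch, by peaks 1137907 and 1049674 bp away that were 87995 bp apart.

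Of 25 STAT5 targets, 1 had wild-type peaks (4.0%, beside 4.47% of all genes) and 2 had knockout peaks (8.0%, beside 3.05%). Myc, the growth-promoting transcription factor, was the 1 gene with both (4.0%, beside 0.392%). That share rests on 1 gene of a list picked with earlier results of these data known, so it supports nothing by itself. The wild-type peak of Myc was 203107 bp from the gene (score 1.76) and its knockout peak 439751 bp (score 0.953), 236564 bp apart on the same side. None of 31 JAK and STAT pathway genes was shared, and 0 had wild-type peaks against 1 with a knockout peak (3.23%), the SUMO ligase gene Pias2. Runx1 and Mef2c, transcription factors outside these lists, were shared from a distance: the Runx1 peaks lay 67133 and 285412 bp away in the wild type and 230321 bp in the knockout, and the Mef2c peaks 401811 and 176718 bp away.

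In the longest of the lists, the 64 synaptic adhesion and other large neuronal genes, 14 had peaks in the wild type (21.9%), 15 in the knockout (23.4%) and 4 in both (6.25%): Cntnap4, Grid1, Negr1 and Nkain3. Of these 64 genes 60 are over 300 kb long, and all genes of that length gave 20.9, 16.5 and 4.90%. Cntnap4, a neurexin family member, was reached inside the gene in the wild type and from 74776 bp outside in the knockout, 377212 bp apart. Nkain3, a partner of the sodium pump, had 2 wild-type peaks inside (scores 1.64 and 0.856) and a knockout peak 15912 bp outside (score 0.864). Grid1, a delta glutamate receptor, had its peaks on opposite sides of the gene, 16058 and 11293 bp away, and so 790623 bp apart.

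Grin2a, an NMDA receptor subunit, was the 1 shared gene of 24 glutamate and GABA receptor genes (4.17%, beside 0.392% of all genes), 14 of which are over 300 kb long. Its peaks lay inside the gene at chr16:9751801-9751888 in the wild type (score 2.23, p-value 0.0129) and chr16:9901115-9901378 in the knockout (score 0.992), 149226 bp apart. Epha6, an ephrin receptor, was the 1 of 26 axon guidance genes (3.85%), 15 of them over 300 kb long, with its wild-type peak 291075 bp outside and its knockout peak inside, 605289 bp apart. The calcium and cyclic nucleotide list had 3 of 29 genes in each library (10.3%) and shared 0. Of all genes 4.47% had wild-type and 3.05% knockout peaks, and 22 of the 29 are over 300 kb long.

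Lists of valve and other cell types held no shared gene. Of 26 valve matrix and fibroblast genes, 1 had wild-type peaks and 3 had knockout peaks. The counts were 0 and 0 of 15 smooth muscle genes and 3 and 0 of 12 endothelial genes. They were 0 and 1 of 10 macrophage genes, and 1 and 1 of 8 melanocyte genes. Of all genes 4.47% had wild-type and 3.05% had knockout peaks. In lists this short 1 gene moves a share by several percentage points, so these counts show no difference between the libraries. Notch, glucocorticoid response, telomere and senescence genes shared 0 of 17, 16, 19 and 18. With 0.392% of all genes shared, a count of 0 in lists of this length is no sign of a lack.

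By name, the shared genes included 3 of 375 solute carriers (Slc38a4, Slc39a11 and Slc44a1), 2 of 400 Zfp zinc finger genes (Zfp536 and Zfp825), 2 of 97 cadherins and protocadherins (Cdh4 and Cdh17), 2 of 44 collagens (Col25a1 and Col27a1), Kcnd2 among 94 potassium channel genes and Ptprn2 among 21 receptor-type tyrosine phosphatases. These shares were 0.8% of solute carriers and 0.5% of Zfp genes, both near the 0.392% of all genes, 2.06% of cadherins, 4.55% of collagens, 1.06% of potassium channels and 4.76% of the phosphatases. The last 4 shares rest on 1 or 2 genes each. Over 300 kb long are 10 of the 97 cadherins, 4 of the 44 collagens, 14 of the 94 potassium channel genes and 6 of the 21 phosphatases. Cdh4, Col25a1, Kcnd2 and Ptprn2 are among them, and 4.90% of all genes of that length were shared. The 1110 olfactory receptor genes, which are short, had 5 wild-type (0.450%, beside 4.47% of all genes), 10 knockout (0.901%, beside 3.05%) and 0 shared. Col27a1, a fibrillar collagen of cartilage, had its peaks 23422 bp apart inside the gene, the wild-type peak at 43.8% of its length and the knockout peak at 24.3%. Ptprn2, a protein of secretory granules, was the 1 gene beyond the 18 with peaks inside that had both libraries within 10000 bp, with a wild-type peak 5435 bp below it and a knockout peak inside, 634318 bp apart.

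In the 3 genes with the widest spacing, at least 1 peak lay far outside the gene. Cadm2, a synaptic adhesion gene of 966 kb, had wild-type peaks inside and 22115 bp outside and a knockout peak 1026887 bp beyond its other end, 1849546 bp apart. Aga, a lysosomal enzyme, had a wild-type peak 1182066 bp below and a knockout peak 11064 bp above the gene, 1204825 bp apart. Diaph3, a formin that builds actin filaments, had a wild-type peak 456262 bp outside and a knockout peak inside, 802336 bp apart.

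The genes not yet placed completed the groups. Peaks inside in the wild type alone were also found in Agfg2, Camkmt, Cdh17, Itga4, Lpin1, N4bp1 and Otud7a, with knockout peaks from 18222 bp (Itga4, an integrin subunit of leukocytes) to 279326 bp (Lpin1, a phosphatidate phosphatase) away. Peaks inside in the knockout alone were found in Arl15, Kif18a, Mvb12b, Ppfia2, Reps2, Slc38a4, Slc44a1, Vps8 and Zfp536, with wild-type peaks from 32771 bp (Slc38a4) to 197524 bp (Zfp536) away. Peaks outside in both were also found for Apob, Cav2, Dact1, Dcaf12l1, Dmac1, Dock4, Dsel, Impg1, Jade1, Kcnd2, Manea, Map3k7, Mat2b, Mgat5, Plk2, Rgs18, Spata18, Stim2, Tmem47, Tox3, Tpm3-rs7, Trim67 and Ube2e3. Among these, Cav2, a caveola protein, had the closest positions, at 19366 bp, and Trim67, a ubiquitin ligase of neurons, the peak nearest to its gene, 929 bp away in the wild type.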

How the data were processed

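The authors deposited 1 peak list per library, with a peak shape score and an unadjusted p-value for each peak and the distance in bp to the neighbouring gene on either side, per the file headers. The build is mm10 according to the labels (per the submitters' processing notes). Aligner, peak caller, control and depth are not given in the sources used here. Positions, spacings, exact Clopper-Pearson 95% intervals and binomial intervals of medians were computed from these lists in Python 3.11.15 (pandas 2.3.3, scipy 1.17.1). A distance of 0 counted as inside the gene, and overlap as at least 1 bp. Gene lengths and starts came from RefSeq tables of GRCm38.p6, the assembly behind mm10. All 80 genes matched there, as did 99.8% of the named genes of each list. The assignment and spacing steps were tested on simulated lists. No test was made between the libraries, since each genotype had 1.

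Genes and the 20 gene lists (462 genes) were chosen with earlier results of these data known. Genes were named by closeness of position (10), peaks inside in both, the 3 highest scores per list, both libraries within 10000 bp, the 3 widest spacings and list membership. Tox3, Malt1, Mvb12b, Cd84, Runx1, Pias2, Trim67, Cav2, Itga4, Lpin1, the single-library genes Col19a1, Dnajb9, Mitf and Nckap5, the family members and the genes that only complete a group were chosen for naming after their values were seen. The alternatives tried were other assignments, p-value limits, overlaps and spacing measures. The values of 1 shared gene are not reported here, and it is counted in the totals.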

Additional observations from a re-analysis of the deposited data

How the results depend on the processing

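The number of shared genes, 80, depended on the assignment and on the peaks kept. It was 18 when only overlapped genes or only genes within 5000 bp were assigned, 39 within 50000 bp and 206 when both neighbours of a peak were assigned. It was 5 with a p-value under 0.1 in both lists, 0 with a p-value under 0.05, and 52 with equal numbers of top-scoring peaks. With Gm and Rik models kept it was 95. The share of shared genes with a knockout peak inside the gene was 42.5%, and 54.5% of the 11 genes with a knockout peak under 0.1. The 7 genes with positions within 10000 bp became 3 within 5000 bp and 23 within 50000 bp, which follows from the limits themselves. The wild-type share inside the gene, the median distances, the median spacing and the overlap count stayed within their intervals or within 1.5 times under the alternatives run. No paired analysis was possible because each genotype had 1 library, and no library could be left out. Depth was unknown, so positions missing from a list may reflect its depth or its limit on peaks, which was not tested.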
